A study of Mus musculus with 12 samples.

Results

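Immediate early response genes are a set of 34 genes chosen by name, and their transcripts were followed in mouse urinary bladder over 1 circadian day. A probe carried the name of 33 of the 34 on the array; the phosphatase gene Dusp5 was not analysed here. Where a name had several probes, the probe of highest mean signal over the 12 arrays stood for the gene. The tests covered 31 of these genes, among 18400 genes in all, because the probes of Fosl1 and Nr4a3 stood well above background on 1 and on 0 of the 12 arrays. The names used are those of the array files, in which Cyr61 and Ctgf are the genes now called Ccn1 and Ccn2.

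Total RNA of whole bladder came from wild-type female C57BL/6 mice, 10 weeks old. A light-dark cycle with 12 h of light was imposed for 2 weeks, after which the lights stayed off. Collection fell on 6 circadian times (CT), 0, 4, 8, 12, 16 and 20 h, each with 2 arrays. Mice rest in the subjective day, which ends at CT12, and are active in the subjective night that follows. The labels give neither the length of the stay in darkness nor the number of mice behind an array. The p-values therefore weigh differences between times against the spread between arrays, which may not be the spread between mice.

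Immediate early genes are transcribed within minutes of a stimulus, from factors that already sit in the cell, such as SRF with its ternary complex partners and CREB. Growth factors, stretch, injury and nerve activity all induce them, and their messenger RNAs decay fast. Many encode transcription factors (the FOS, JUN, EGR and NR4A families). Others encode proteins that shut the signal off again, such as dual specificity phosphatases and the RNA decay factor encoded by Zfp36. In the bladder, stretch during filling is a known inducer of this class, and CYR61 and CTGF are targets of the stretch-regulated factor YAP.

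All 12 arrays were of similar brightness, with a 75th percentile of 793 to 917 intensity units per array and 64.2% to 70.2% of spots well above background. Levels below are log2 signals relative to that percentile of the same array, so 0 equals the percentile. The number of arrays limits the precision. Levels of different probes are not comparable with each other. Defining transcripts of the bladder were present: 8 of 8 urothelial and 7 of 7 smooth muscle markers passed the filter. Each of 3 slides held the arrays of 2 neighbouring times: slide 1 those of CT0 with CT4, slide 2 those of CT8 with CT12, slide 3 those of CT16 with CT20. The 6 hepatocyte markers measured had a summed level of 5.30 in CT20 replicate 2 and 4.92 in CT12 replicate 2, against -0.82 in CT20 replicate 1. The same fit took 4 clock genes past the threshold for a 24 h wave, among them Nr1d1 (11.5-fold, limma adjusted p = 9.8e-06) and Per1 (4.76-fold, limma adjusted p = 0.0394).

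Immediate early transcripts had a wide spread between the 2 arrays of a time, and 26 of the 31 had a larger mean square between times than within them. The pooled SD between arrays of a time had a median of 0.294 (log2) over the 31 genes, against 0.155 over all 18400 genes. For 10 of the 31 it exceeded the 90th percentile of all genes, a mark that 10% of all genes exceed. The share of variance between times, (between - within)/(between + within) of the mean squares, had a median of 0.572 over the 31 genes, against 0.298 over all genes. Without the 3 arrays highest in slow and cardiac muscle markers this order turned, with 0.459 over the 31 and 0.480 over all genes. With all arrays the share was below 0, with more spread within times than between them, for 5 of the 31 (Junb, Plk3, Ier2, Zfp36 and Btg2), against 26.7% of all genes. A second Ier2 probe had a share of 0.493, against -0.199 for the probe used. The further probes of Junb, Zfp36 and Btg2 were below 0 as well. The range of the 6 time means was larger than the widest gap between 2 arrays of a time for 23 of the 31, against 53.1% of all genes.

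Neither test passed the threshold for any of the 31. For a difference of any shape among the 6 times (1-way test), limma called 0 of 31 after adjustment over all genes (background 0.0924%), and 18 of 31 had an unadjusted p under 0.05, against 19% of all genes. The lowest adjusted p was that of Nr4a1 (limma, 0.142). For a 24 h wave limma called 0 of 31 (background 0.62%), and 4 of 31 had an unadjusted p under 0.05, against 15.7% of all genes. Those 4 were Fosl2, Ier5, Gadd45a and Plk2, with fitted peaks at CT18.3, CT19.7, CT19.5 and CT16.1. A second Fosl2 probe, well above background on 12 arrays, differed, with a 1.19-fold fit peaking at CT0.6, against 1.32-fold for the probe used. Gadd45a came nearest, with a 1.33-fold wave (limma adjusted p = 0.0950).

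**Figure D1:**
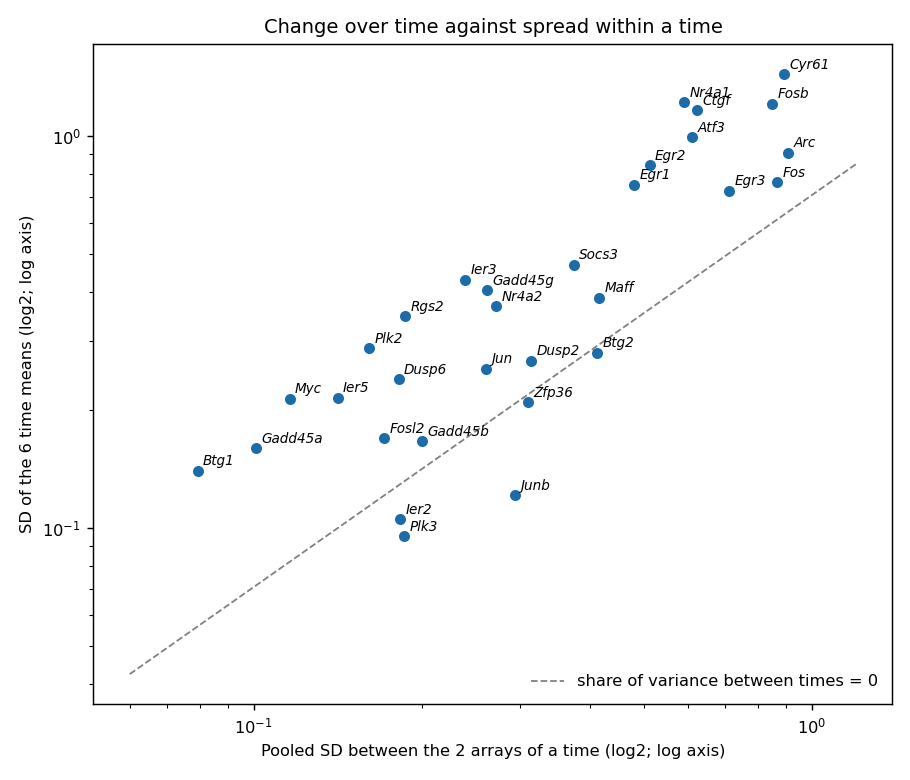
Each point is 1 of the 31 genes tested, with the pooled SD between the 2 arrays of a time on the x axis (log2 units, log axis) and the SD of the 6 time means on the y axis (log2 units, log axis). The dashed line marks a share of variance between times of 0; 26 genes lie above it and 5 below it, and Cyr61, Nr4a1, Ctgf, Fosb and Atf3 lie farthest up.

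Low values gathered at CT8. The mean at CT8 was the lowest of the 6 for 22 of the 31 genes, against 17.5% of all genes. CT8 shared its slide with CT12 alone. Differences between times on different slides, here and in the 1-way test, cannot be told apart from differences between slides. The highest mean was at CT12 for 12 genes and at CT0 for another 12, against 15.9% and 15% of all genes. By array, 18 of the 31 genes had their lowest value in CT8 replicate 1 and another 4 in CT8 replicate 2, against 12.5% and 7.52% of all genes. The median deviation of the 31 from their own means over the times was -0.38 at CT8, 0.34 at CT12 and 0.14 at CT0, while that of all genes stayed between -0.02 and 0.02.

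**Figure D2:**
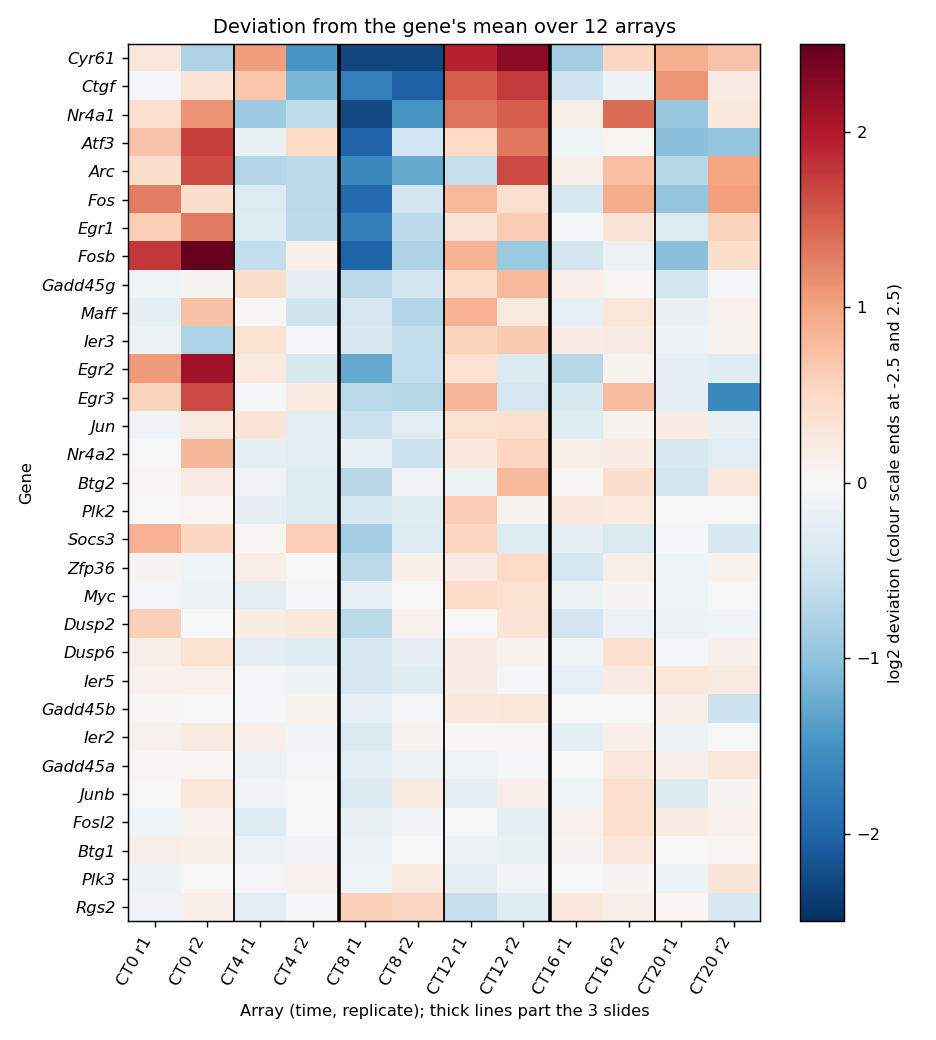
Colour shows the log2 deviation of each of the 31 genes (rows, ordered by CT12 minus CT8) from its own mean over the 12 arrays (columns, in order of time and replicate). Blue dominates both CT8 columns and red both CT12 columns, with CT0 replicate 2 and CT16 replicate 2 red for most genes; Rgs2, in the bottom row, runs the other way.

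The FOS, JUN and related factors pair through leucine zippers to form the AP-1 complex. Fos, the founding member (probe on chromosome 12, 83478431 to 83478490, mm7), had levels of 1.83 and 1.0 at CT0, 0.21 and -0.13 at CT4, -1.39 and 0.07 at CT8, 1.36 and 0.95 at CT12, 0.12 and 1.49 at CT16 and -0.44 and 1.57 at CT20. Both arrays of CT0 and of CT12 were high, as were replicate 2 of CT16 and of CT20. At CT8, CT16 and CT20 the arrays of a time disagreed, by 1.46, 1.37 and 2.01 log2, and replicate 2 was the higher each time. The pooled SD within a time was 0.866, and the 1-way test gave limma adjusted p = 0.415. The 9 or 10 spots used for the Fos probe on an array had an SD of 0.033 to 0.0784 (log2) within an array, which covers neither labelling nor hybridisation.

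Fosb, a paralog of Fos (probe on chromosome 7, 16985502 to 16985561, mm7), had levels of -2.08 and -1.07 at CT0, -4.46 and -3.73 at CT4, -5.84 and -4.61 at CT8, -2.97 and -4.78 at CT12, -4.32 and -4.00 at CT16 and -4.89 and -3.41 at CT20. Its CT0 arrays were the highest pair and CT8 replicate 1 the lowest array, and at CT12 the arrays differed by 1.81 log2. The 1-way test gave limma unadjusted p = 0.0210 and adjusted p = 0.211. Its within-time SD of 0.848 was 0.437 with normexp background correction and 0.419 in the authors' deposited table. Atf3 encodes a stress-induced repressor that also binds AP-1 partners (probe on chromosome 1, 190724174 to 190724233, mm7), and its levels were 0.77 and 1.80 at CT0, -0.10 and 0.56 at CT4, -1.94 and -0.42 at CT8, 0.56 and 1.37 at CT12, -0.04 and 0.10 at CT16 and -0.97 and -0.93 at CT20. The array values at CT8 differed by 1.52, and both lay below both arrays of CT0, CT4, CT12 and CT16, and the CT20 arrays were low as well (limma adjusted p = 0.181 in the 1-way test).

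Jun, the main partner of Fos, ranged from 1.09 in CT8 replicate 1 to 2.01 in CT12 replicate 2 (within-time SD 0.260). Maff, encoding a small MAF protein, had its highest array in CT12 replicate 1 (2.29) and its lowest in CT8 replicate 2 (0.70). Junb ranged from 5.51 to 6.29, with replicate 2 above replicate 1 at every time, and its second probe behaved alike (within-time SD 0.324). Fosl2 ranged from 1.09 to 1.83. Of the 7 genes of this family tested, 5 had their lowest mean at CT8 and 2 an unadjusted p under 0.05 in the 1-way test (Fosb and Atf3).

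The EGR genes encode zinc finger factors that bind GC-rich promoter sites. Egr1, the founding member, had levels of 2.46 and 3.14 at CT0, 1.52 and 1.19 at CT4, 0.12 and 1.19 at CT8, 2.16 and 2.48 at CT12, 1.81 and 2.16 at CT16 and 1.49 and 2.40 at CT20. Both CT0 arrays and CT20 replicate 2 and CT12 replicate 2 were the highest, and CT8 replicate 1 was the lowest (1-way limma unadjusted p = 0.0131, adjusted p = 0.191). Egr2 (probe on chromosome 10, 67145376 to 67145435, mm7) had levels of -0.56 and 0.48 at CT0, -1.38 and -2.00 at CT4, -2.90 and -2.23 at CT8, -1.23 and -1.99 at CT12, -2.34 and -1.53 at CT16 and -1.84 and -1.91 at CT20. Its 2 arrays at CT0 lay above all others, and both arrays of CT8 below most (limma adjusted p = 0.180); its 10 spots per array had an SD of at most 0.159. Egr3 was dim, well above background on 9 arrays, and ranged from -7.41 in CT20 replicate 2 to -4.16 in CT0 replicate 2 (within-time SD 0.711). The same SD was 0.205 with normexp background correction and 0.164 in the authors' deposited table. A second Egr3 probe was well above background on 1 array and is not informative.

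Nr4a1, encoding the orphan nuclear receptor NUR77 (probe on chromosome 15, 101260484 to 101260543, mm7), had levels of 4.57 and 5.29 at CT0, 3.25 and 3.54 at CT4, 1.92 and 2.67 at CT8, 5.52 and 5.67 at CT12, 4.33 and 5.56 at CT16 and 3.22 and 4.44 at CT20. Both CT12 arrays, CT16 replicate 2 and CT0 replicate 2 were high, and the CT8 arrays were the lowest of the 12. The range of its time means, 3.30 log2, was above the widest gap between paired arrays, 1.23 at CT16. Its 1-way unadjusted p of 0.00228 was the lowest of the 31 and missed the threshold after adjustment (limma, 0.142). Nr4a2, which encodes its relative NURR1, varied less, from -1.64 in CT8 replicate 2 to -0.28 in CT0 replicate 2 (1-way limma unadjusted p = 0.0326).

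Cyr61 and Ctgf encode secreted matricellular proteins that bind integrins. Cyr61 (probe on chromosome 3, 145544387 to 145544446, mm7) had levels of 2.54 and 1.48 at CT0, 3.31 and 0.79 at CT4, -0.01 and -0.02 at CT8, 4.21 and 4.52 at CT12, 1.41 and 2.79 at CT16 and 3.14 and 2.97 at CT20. Its CT8 arrays differed by 0.02 and were the lowest of the 12, and its CT12 arrays were the highest. At CT4, in contrast, the 2 arrays were 5.76-fold apart, the widest gap of any of the 31 genes at any time. Ctgf (probe on chromosome 10, 24349402 to 24349461, mm7) had levels of 3.35 and 3.75 at CT0, 4.11 and 2.26 at CT4, 1.70 and 1.36 at CT8, 4.92 and 5.16 at CT12, 2.88 and 3.28 at CT16 and 4.50 and 3.62 at CT20. It had the same lowest and highest pairs as Cyr61, and its CT4 arrays were 3.59-fold apart, again with replicate 1 higher. The 1-way limma adjusted p was 0.182 for Cyr61 and 0.160 for Ctgf.

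**Figure D3:**
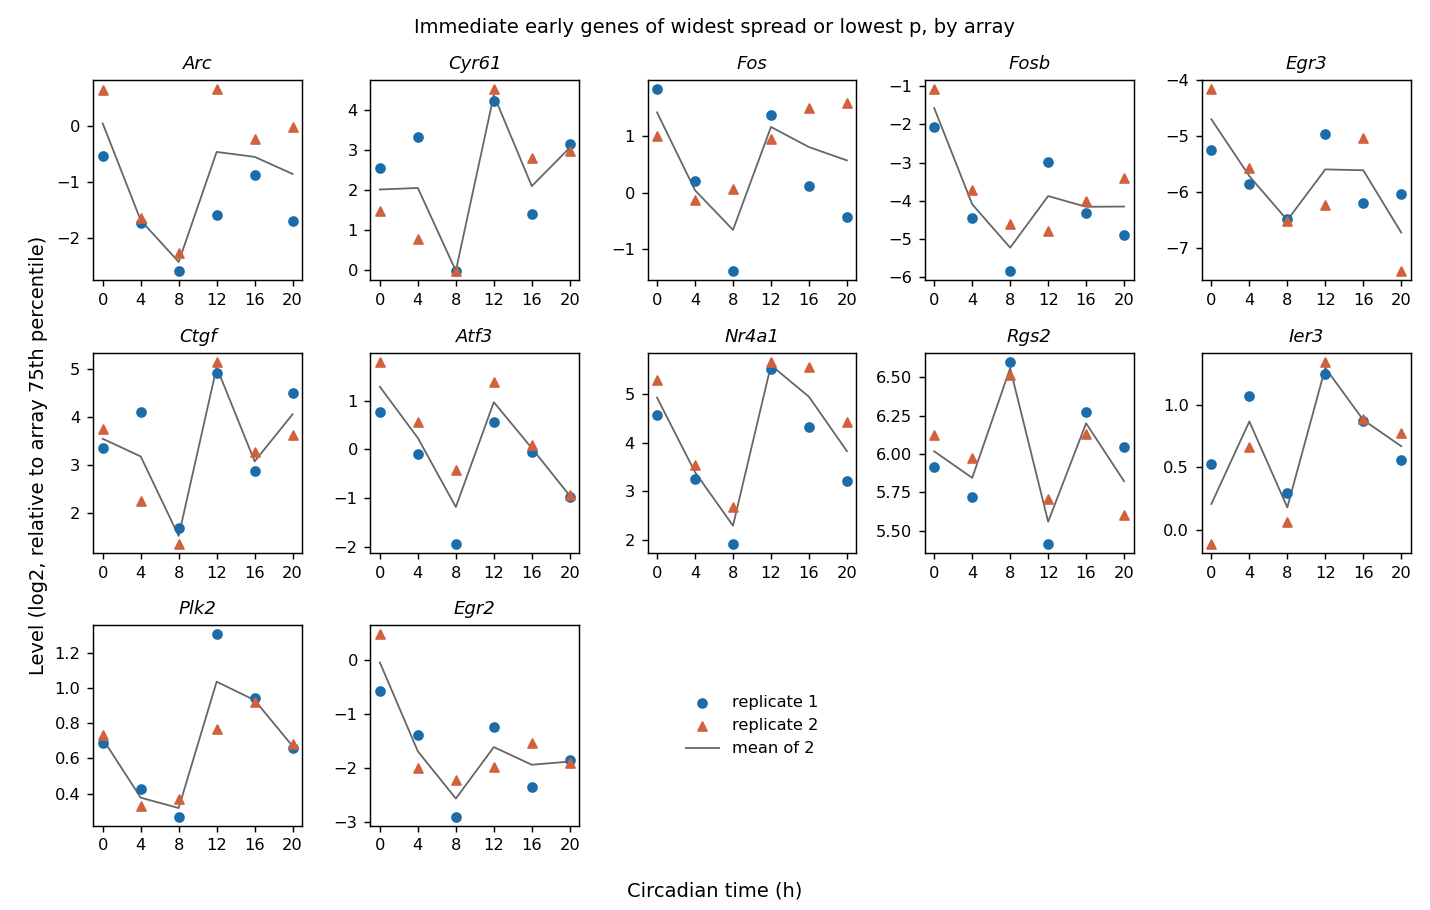
Levels (log2, relative to the array's 75th percentile) of the 12 genes with the widest within-time spread or the lowest 1-way p are plotted against circadian time in hours; circles are replicate 1, triangles replicate 2 and the grey line joins the means. Most panels dip at CT8, where the mean of Nr4a1 is 2.30, and Rgs2 peaks there at 6.56.

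Genes of signal feedback included the 1 gene of the 31 with its highest mean at CT8, Rgs2. Rgs2, a GTPase activator that dampens Gq signalling and smooth muscle contraction (probe on chromosome 1, 143927444 to 143927503, mm7), had levels of 5.91 and 6.12 at CT0, 5.72 and 5.97 at CT4, 6.60 and 6.52 at CT8, 5.41 and 5.70 at CT12, 6.27 and 6.13 at CT16 and 6.05 and 5.60 at CT20. Its CT8 arrays were the highest of the 12, the opposite of the pattern above, and CT12 replicate 1 was the lowest (1-way limma unadjusted p = 0.00663, adjusted p = 0.168). The phosphatase gene Dusp6, a brake on ERK, ranged from 2.77 to 3.57, and its relative Dusp2 from -1.09 to 0.17; both were lowest in CT8 replicate 1. Socs3, the inhibitor of cytokine receptor signalling, was also lowest there (0.66) and highest in CT0 replicate 1 (2.40). Zfp36 ranged from -0.18 to 0.96, with no more variance between times than within them on either of its 2 probes.

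The 8 genes of growth control had within-time SDs of 0.0794 to 0.412. Plk2, encoding a polo-like kinase (probe on chromosome 13, 107549252 to 107549311, mm7), had levels of 0.69 and 0.73 at CT0, 0.43 and 0.33 at CT4, 0.27 and 0.37 at CT8, 1.30 and 0.77 at CT12, 0.94 and 0.92 at CT16 and 0.66 and 0.68 at CT20. CT12 replicate 1 stood above the rest, and the 4 arrays of CT4 and CT8 were the lowest (1-way limma unadjusted p = 0.00964, adjusted p = 0.180). Myc, a driver of cell growth, ranged from 0.24 to 0.98, with both CT12 arrays above the other 10, and its 3 probes gave 24 h fits of 1.27-fold to 1.46-fold. Gadd45g, encoding a stress sensor of the GADD45 family, ranged from 4.46 in CT8 replicate 1 to 5.93 in CT12 replicate 2. Its paralog Gadd45a stayed within 0.56 log2 over the 12 arrays and Gadd45b within 0.84. A second Gadd45b probe, well above background on 12 arrays, had a share of variance between times of 0.625, against 0.162 for the probe used. Its 24 h fit was 1.42-fold with a peak at CT6.0, against 1.14-fold and CT10.8. The antiproliferative genes Btg1 and Btg2 had within-time SDs of 0.0794 and 0.412, and Plk3 one of 0.186, with more spread within times than between them for Btg2 and Plk3.

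Arc, best known for its role at synapses, had the largest within-time SD of the 31 (0.906). Its levels (probe on chromosome 15, 74749717 to 74749776, mm7) were -0.55 and 0.63 at CT0, -1.74 and -1.64 at CT4, -2.60 and -2.27 at CT8, -1.59 and 0.66 at CT12, -0.87 and -0.24 at CT16 and -1.71 and -0.02 at CT20. At CT12 replicate 2 was 4.77-fold above replicate 1, and the CT8 arrays were the lowest pair (1-way limma adjusted p = 0.342). Without the 3 arrays highest in hepatocyte markers (CT0, CT12 and CT20 replicate 2) its within-time SD was 0.295. That value rests on the pairs of CT4, CT8 and CT16 alone. Their gaps of 0.09, 0.33 and 0.64 log2 were already the narrowest of Arc. In the pairs of CT0, CT12 and CT20, replicate 1 minus replicate 2 was -1.18, -2.25 and -1.69 log2. The part of hepatocyte transcripts in these gaps was not tested. Ier3, encoding a regulator of cell survival (probe on chromosome 17, 33924245 to 33924304, mm7), had levels of 0.53 and -0.11 at CT0, 1.07 and 0.66 at CT4, 0.29 and 0.06 at CT8, 1.24 and 1.34 at CT12, 0.87 and 0.88 at CT16 and 0.56 and 0.78 at CT20. Both CT12 arrays were its highest, while the low arrays were those of CT8 and CT0 replicate 2 (1-way limma unadjusted p = 0.00692, adjusted p = 0.168). Ier5 spanned 0.72 log2 and Ier2 0.59 log2 over the 12 arrays, both lowest in CT8 replicate 1.

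CT12 was compared with CT8 because the values above pointed to it, so the comparison was chosen after the data were seen and its counts are a description. CT8 and CT12 shared a slide, and a difference between them is one within that slide. Of the 31 genes, 28 were higher at CT12 than at CT8, against 48.7% of all genes, and the median difference was 0.73 (log2), against -0.01 for all genes. Both CT12 arrays lay above both CT8 arrays for 21 of the 31 (background 20.2%) and below them for 1, Rgs2 (background 23.9%). At an unadjusted p under 0.05, 16 of the 31 stood higher at CT12 (background 6.07%) and 1 lower (background 6.8%). After adjustment over all genes limma called none of the 31 and none of the 18400 (background 0%), with 2367 genes under an unadjusted 0.05.

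The largest differences were those of Cyr61, 4.38 ± 0.79 (log2, SE; 20.8-fold), Ctgf, 3.51 ± 0.55 (11.4-fold), and Nr4a1, 3.30 ± 0.52 (9.85-fold). Their limma adjusted p-values were 0.248, 0.206 and 0.206. Atf3 differed by 2.15 ± 0.54 (log2, SE; 4.44-fold), Arc by 1.97 ± 0.80 (3.91-fold), Fos by 1.82 ± 0.76 (3.52-fold) and Egr1 by 1.66 ± 0.43 (3.17-fold), with limma adjusted p = 0.267, 0.365, 0.374 and 0.267. Single arrays weighed more on some of these values than on others. Leaving out any single array of CT8 or CT12 gave 4.22 to 4.54 for Cyr61, 3.34 to 3.68 for Ctgf and 2.92 to 3.68 for Nr4a1. The difference of Arc was 0.84 without CT12 replicate 2 and 3.09 without CT12 replicate 1. That of Fos was 1.09 without CT8 replicate 1, and that of Atf3 1.39. Smaller differences were those of Gadd45g (2.31-fold), Ier3 (2.17-fold), Plk2 (1.65-fold) and Myc (1.44-fold), each with limma adjusted p of 0.248 to 0.257. The Plk2 difference, 0.72 log2, was 0.45 without CT12 replicate 1 and 0.99 without CT12 replicate 2. Rgs2 differed by -1.0 ± 0.18 (log2, SE; limma adjusted p = 0.248), and its second probe by -1.01. Junb and Fosl2 differed by 0.02 ± 0.27 and 0.01 ± 0.16.

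**Figure D4:**
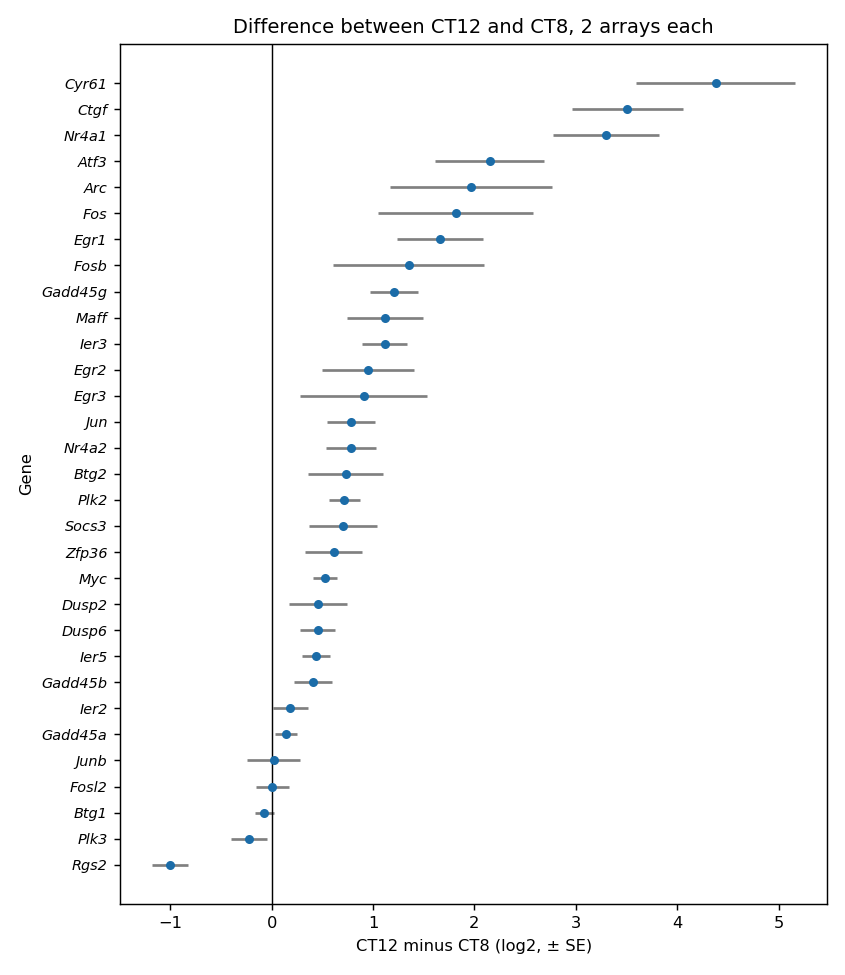
Points give the difference CT12 minus CT8 (log2, 2 arrays each) for each of the 31 genes, with bars of 1 SE from the 1-way limma fit. The genes run from Cyr61 at 4.38 to Rgs2 at -1.0, and 28 of the 31 lie to the right of 0.

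Marker transcripts of several cell types also differed between these arrays. Summed levels (log2) of the 8 urothelial markers were 8.42 and 8.75 at CT12, against 8.95 and 8.95 at CT8, and all 8 had a lower mean at CT12. Those of the 5 adipocyte markers were 7.66 and 8.79 at CT12, against 7.44 and 7.97 at CT8. Summed smooth muscle markers were at 10.78 and 10.57 at CT12, against 10.67 and 10.46 at CT8. The 6 heat shock genes stood at 7.60 and 7.55 at CT12, against 7.40 and 7.23 at CT8. Hepatocyte markers summed to 1.24 and 4.92 at CT12, against 2.77 and 2.20 at CT8. Summed leukocyte markers spanned 1.97 to 2.45 at CT12, against 2.18 to 2.36 at CT8. The adipocyte, smooth muscle, hepatocyte and leukocyte values of CT12 and CT8 overlapped, as did those of skeletal and cardiac muscle and red blood cell markers. Fibroblast markers summed to 9.68 and 9.62 at CT12, against 9.58 and 9.39 at CT8. For nerve markers the sums were 0.38 and 0.45, against 0.05 and 0.20. Endothelial markers were at 3.03 and 3.05, against 3.08 and 3.12. The fibroblast, nerve and endothelial values of CT12 and CT8 did not overlap. The part of any of these differences in the result was not tested. In whole tissue, fewer cells of a type and less RNA per cell cannot be told apart. Without the 3 arrays highest in hepatocyte markers, CT12 replicate 2 among them, an unadjusted p under 0.05 for CT12 against CT8 was met by 19 of the 31, the lone CT12 array being taken to vary like the others, and without CT8 replicate 1 by 12.

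Promoters are shown for 5 of the 8 genes with the widest spread within a time, those with an entry in the RefSeq promoter table (GRCm38.p6), to show the letters behind the motif counts that follow. Each runs from 250 bases before the transcription start to 50 after it, 5′ to 3′. Capitals mark TGACG on either strand (CGTCA on the other), the short form of the cAMP response element, the site bound by CREB.
Fos promoter, chr12:85473640-85473939, plus strand: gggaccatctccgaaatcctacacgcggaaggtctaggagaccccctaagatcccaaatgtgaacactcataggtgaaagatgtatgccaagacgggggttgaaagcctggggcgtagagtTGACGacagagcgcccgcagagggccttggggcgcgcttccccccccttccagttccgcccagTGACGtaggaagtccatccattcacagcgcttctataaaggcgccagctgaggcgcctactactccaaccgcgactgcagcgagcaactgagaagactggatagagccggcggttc
Fosb promoter, chr7:19309996-19310295, minus strand: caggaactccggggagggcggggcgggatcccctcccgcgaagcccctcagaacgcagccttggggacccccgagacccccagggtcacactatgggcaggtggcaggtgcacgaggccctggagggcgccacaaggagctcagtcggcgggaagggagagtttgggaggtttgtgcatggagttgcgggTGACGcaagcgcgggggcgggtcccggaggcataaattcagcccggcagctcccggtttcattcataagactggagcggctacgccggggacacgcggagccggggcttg
Atf3 promoter, chr1:191183284-191183583, minus strand: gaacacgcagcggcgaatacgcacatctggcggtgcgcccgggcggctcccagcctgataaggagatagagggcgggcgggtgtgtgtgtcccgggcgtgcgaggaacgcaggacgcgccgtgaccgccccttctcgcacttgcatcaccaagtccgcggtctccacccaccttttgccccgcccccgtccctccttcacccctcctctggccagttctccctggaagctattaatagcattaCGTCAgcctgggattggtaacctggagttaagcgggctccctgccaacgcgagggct
Nr4a1 promoter, chr15:101266596-101266895, plus strand: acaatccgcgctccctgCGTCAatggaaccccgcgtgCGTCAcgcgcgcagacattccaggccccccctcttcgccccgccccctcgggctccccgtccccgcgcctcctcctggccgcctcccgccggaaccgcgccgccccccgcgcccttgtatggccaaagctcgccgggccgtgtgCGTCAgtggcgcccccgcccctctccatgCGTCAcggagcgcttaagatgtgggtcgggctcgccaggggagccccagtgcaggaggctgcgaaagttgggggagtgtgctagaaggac
Cyr61 promoter, chr3:145649936-145650235, minus strand: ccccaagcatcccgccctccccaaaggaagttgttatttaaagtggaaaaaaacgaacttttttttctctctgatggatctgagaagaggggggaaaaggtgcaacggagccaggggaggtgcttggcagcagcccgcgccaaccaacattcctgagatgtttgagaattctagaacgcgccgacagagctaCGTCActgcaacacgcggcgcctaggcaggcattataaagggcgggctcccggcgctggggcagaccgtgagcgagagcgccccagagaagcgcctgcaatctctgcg

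All 5 windows held this short form, with 4 copies for Nr4a1, 2 for Fos and 1 for each of the others. Over the 26 immediate early genes with a promoter entry, 16 (61.5%) held TGACG, against 23% of the 27025 genes of the table. The full element TGACGTCA, which contains the short form, was in 3 of 26 (Btg2, Maff and Plk2), against 2.03%. The CArG box, the SRF site, was in 2 of 26 (Egr2 and Zfp36), against 1.81%, within this short window. The EGR site GCGGGGGCG was in 6 of 26, against 3.31%, the clock E-box CACGTG in 5 of 26, against 8.09%, and the AP-1 site TGANTCA in 0 of 26, against 8.97%. Both strands were searched for every motif, and a match is a description of the letters.

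Within some pairs of arrays, most of the 31 genes differed in the same direction. At CT16, replicate 1 was the higher array for 4 of the 31 genes, against 45.5% of all genes, with a median difference of -0.35 (log2). At CT8 it was the higher for 7 of the 31, against 48.8% of all genes. The count was 10 at CT20 (53.4% of all genes), 10 at CT0 (42.8%), 13 at CT12 (52.4%) and 16 at CT4 (53.8%). The median difference over all genes was between -0.05 and 0.02 at each time. Gaps of over 1 log2 occurred in 6 genes at CT0, 2 at CT4, 4 at CT8, 3 at CT12, 4 at CT16 and 5 at CT20, against 2.75% to 5.92% of all genes.

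At CT20, Fos was 2.01 log2 higher in replicate 2 than in replicate 1, Arc 1.69 and Fosb 1.48. Of the CT20 gaps over 1 log2, replicate 2 was the higher in 4 and replicate 1 in 1. The latter was that of the dim gene Egr3, 1.38, and Ctgf was 0.88 higher in replicate 1. The summed hepatocyte markers were at 5.30 in CT20 replicate 2 and -0.82 in CT20 replicate 1, and their part in these gaps was not tested. At CT16, Cyr61 was 1.38 higher in replicate 2, Fos 1.37 and Nr4a1 1.23. Summed heat shock levels were 7.74 in that replicate 2 and 7.65 in replicate 1. Hepatocyte markers were at 2.29 and 0.18, and endothelial markers at 2.99 and 3.34, in the same order. The part of any of these in the gaps was not tested. The CT4 pair parted by gene: Cyr61 and Ctgf were 2.52 and 1.84 higher in replicate 1, while Fosb was 0.73 higher in replicate 2.

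**Figure D5:**
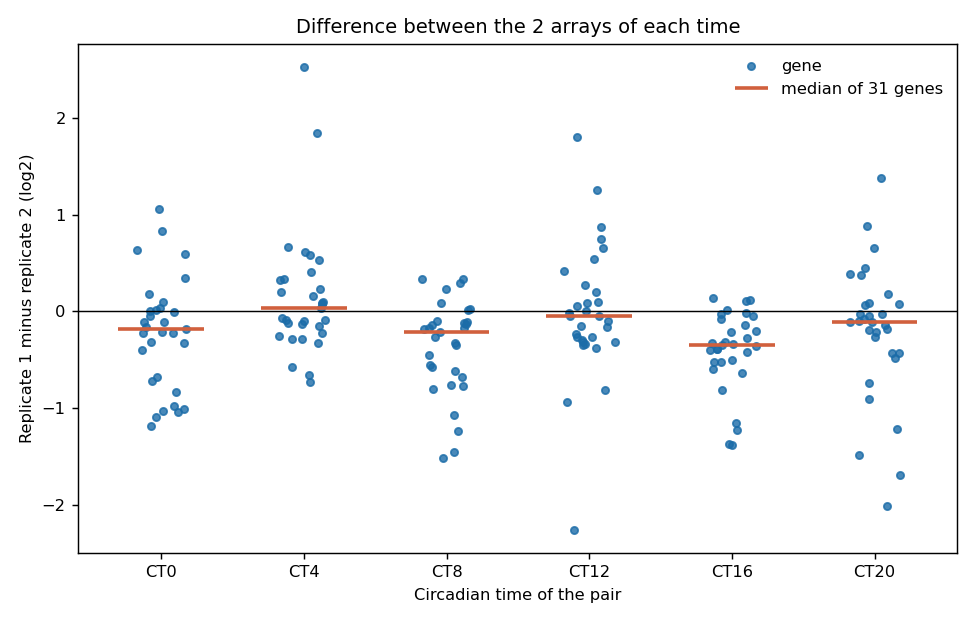
Each point is replicate 1 minus replicate 2 (log2) for 1 of the 31 genes in the pair of arrays at each circadian time, and the orange bar is the median of the 31. The median lies at -0.35 at CT16 and at -0.21 at CT8, and the points reach from 2.52 (Cyr61, CT4) to -2.25 (Arc, CT12).

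Beyond the 31, a second list held other inducible genes. Of 40 tested, 19 had an unadjusted p under 0.05 in the 1-way test (background 19%), and 16 had their lowest mean at CT8 (background 17.5%). For CT12 against CT8, 17 of the 40 were higher with an unadjusted p under 0.05 (background 6.07%) and 0 lower (background 6.8%), with a median difference of 0.39 (log2), against -0.01 over all genes. Per1, a clock gene that is also induced by CREB, was the 1 that passed after adjustment, in both tests (limma adjusted p = 0.00991 for any difference). Dusp1, the ERK and p38 phosphatase gene, chosen here after its values were seen, had levels of 2.19 and 2.53 at CT12, against -0.27 and 0.50 at CT8 (limma adjusted p = 0.178 in the 1-way test). The widest within-time SDs of the list were those of the cytokine gene Il6 (0.569), the matrix protein gene Thbs1 (0.534) and the chemokine gene Ccl2 (0.533).

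Kinases and factors that act upstream of the 31 formed the third list. The median within-time SD of its 24 tested genes was 0.128 (log2), against 0.155 over all genes, and 4 had an unadjusted p under 0.05 in the 1-way test, a share near the 19% of all genes. For a 24 h wave, 8 of the 24 had a limma unadjusted p under 0.05 (background 15.7%), and 1 passed after adjustment (background 0.62%). That gene was Rps6ka5, encoding the kinase MSK1 that phosphorylates CREB and histone H3. Its wave was 1.81-fold, with a peak at CT12.3 (limma adjusted p = 0.0446). Srf itself had a 1-way limma adjusted p of 0.961 and a within-time SD of 0.233. Of the 24, 2 were higher at CT12 than at CT8 with an unadjusted p under 0.05 (background 6.07%) and 1 lower (background 6.8%), both near the shares of all genes.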

How the data were processed

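Agilent 1-colour arrays of 12 bladder RNA samples were used. Per the file headers, deposited values are spot intensity from Agilent Feature Extraction 10.5.1.1, background-subtracted and detrended within the array, and not normalised between arrays; other deposited columns hold yes-or-no marks. The authors' table of log2 values, whose normalisation is not given in the sources used here, served as an alternative. Processed signals of 43379 non-control spots, outlier spots dropped, were averaged per probe on the log2 scale, and each array's 75th percentile was subtracted. Names followed the files' RefSeq accessions (GRCm38.p6 table), then symbols and synonyms. The probe of highest mean signal stood for a name, and a name entered the tests if well above background on 4 or more arrays. Coordinates of probes are those of mm7; exons were not assigned.

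limma 3.58.1 (R 4.3.3) fitted a 24 h cosine with its sine (moderated F-test, 9 residual degrees of freedom) and a 1-way model over the 6 times (6 residual degrees of freedom); the difference CT12 minus CT8 came from the 1-way model. Benjamini-Hochberg adjustment ran over all 18400 genes (threshold 0.05), and both fits were tested on simulated data. The genes and lists were chosen with earlier results of these data known. Values by array are given for the 8 genes with the widest within-time SD and the 8 with the lowest 1-way p, with the others by range. Egr1, in neither set, is given by array as well, outside this rule. Replicate numbers do not pair the arrays by any label, and were used as a block in an alternative only. Other alternatives covered background correction, scaling, the filter, the choice of probe, slide, the variance prior and leaving out each array.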

Additional observations from a re-analysis of the deposited data

How the results depend on the processing

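No immediate early gene passed the threshold for a 24 h wave in any of 27 alternatives, or for any difference between the 6 times in any of 26. The lowest limma adjusted p over them was 0.0569 (Gadd45a, intensity trend in the prior) and 0.0627 (Nr4a1, replicate block). The genes with an unadjusted p under 0.05 in the 1-way test, 18 above, numbered 9 to 18, with 9 without the 3 arrays highest in hepatocyte markers and 10 without the 3 highest in slow and cardiac muscle markers. Those for a 24 h wave, 4 above, numbered 2 to 14; the 14 came with slide as a fixed block, and the cause was not tested. For CT12 against CT8 the count after adjustment was 0 in all 25 alternatives, and 12 to 19 genes had an unadjusted p under 0.05. The median within-time SD was 0.254 to 0.320. The median share of variance between times was 0.420 to 0.559 when 1 array was left out, 0.420 without CT8 replicate 1 (0.302 over all genes), 0.425 without the 3 arrays highest in hepatocyte markers (0.312), and 0.459 without the 3 highest in slow and cardiac muscle markers (0.480), the 1 alternative in which all genes stood above the 31. Slide as a random block could not be fitted beside the 6 times, since each time lay on 1 slide.

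With replicate number as a block, 0 of the 31 passed any threshold (lowest adjusted p 0.0578 for a 24 h wave, 0.0627 for any difference, 0.0952 for CT12 against CT8), the median within-time SD was 0.283 and the median share 0.607. Differences between replicates 1 and 2 correlated across genes at -0.201 to 0.443 between times, over 0.1 in 10 of 15 pairs of times and under -0.1 in 2, so not every pair of times passed and the arrays were not taken as paired. Replicate 2 was above replicate 1 at all 6 times for 5 of the 31 (Junb, Atf3, Nr4a1, Arc and Plk3), and the block gave within-time SDs of 0.319 for Nr4a1 (0.590 without it), 0.590 for Arc (0.906) and 0.391 for Atf3 (0.610). Over all genes, the 114 called for a wave became 2 (slide as a fixed block) to 170 (the authors' table), with 92 under the replicate block; the 17 called for any difference became 0 (slide as a fixed block) to 137 (without CT0 replicate 1), with 23 under the replicate block; for CT12 against CT8, 0 became at most 4 (without CT8 replicate 1). The within-time SD of Atf3 was 0.335 without the 3 arrays highest in slow and cardiac muscle markers. That value rests on the pairs of CT12, CT16 and CT20 alone, so the CT8 pair of Atf3, 1.52 log2 apart, was not in it. The alternatives without arrays high in hepatocyte, muscle or heat shock transcripts were chosen after seeing the data.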
